A study of Rattus norvegicus with 4 samples.

Results

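The metalloproteinases described here are the matrix metalloproteinases (MMPs), the ADAM and ADAMTS proteases, the ADAMTS-like proteins and the tissue inhibitors of metalloproteinases (TIMPs) of the rat, measured in the epithelium around a dental implant and in the epithelium around a tooth. The family was chosen for description with earlier results of these data known. Its members were then every probe set with a single annotated symbol that starts with Mmp, Timp, Adam, Adamts or Adamtsl followed by a digit. This gave 79 of 31042 probe sets and 55 of 14217 genes, each gene being represented by its brightest probe set on average across the 4 arrays. Of the 55 genes, 17 encode MMPs, 4 TIMPs, 18 ADAMs, 12 ADAMTS proteases and 4 ADAMTS-like proteins.

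Peri-implant epithelium (2 arrays) is the soft tissue seal that forms at a titanium alloy implant set in the place of an extracted upper left first molar. It was set against junctional epithelium (2 arrays), the epithelial collar of a natural tooth. All samples came from male Sprague-Dawley rats, 4 weeks old at the start, were collected 4 weeks after implant placement from 20 rats, and were cut out of frozen sections by laser microdissection. Every sample carries the same treatment label, tooth extraction with implant placement, while the labels do not say whether an array holds 1 animal or a pool. P-values therefore measure only the spread between these arrays, which may be technical.

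MMPs are secreted or membrane-bound zinc proteases that are made as inactive proenzymes and cut collagens, laminins and other matrix proteins once activated. ADAMs sit in the plasma membrane, where the catalytic ones release growth factors, cytokines and adhesion molecules from the cell surface, while ADAMTS proteases are secreted and cut proteoglycans and procollagens. TIMPs bind and block many of these enzymes. In gingiva, MMPs from keratinocytes, fibroblasts and leukocytes are known for their part in epithelial movement over wounds and in the loss of collagen in inflammation.

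Of the members, 6 lie in a tandem cluster of MMP genes on rat chromosome 8 (12782829 to 13140761 in GRCr8), in the order Mmp13, Mmp12, Mmp3, Mmp10, Mmp8 and Mmp7. MMP promoters are known for a proximal site of AP-1, the Fos and Jun transcription factor, and that site (TGAGTCA, searched on both strands in the 250 bases before the start) was found in 5 of these 6 genes. Outside the cluster it was found only in Adam19 among the 34 members with a RefSeq promoter entry (GRCr8). Over all 27457 genes with an entry, 4.42% held it. Below are these 6 sites with 20 bases on each side, 5′ to 3′ on the strand of the gene, the motif in capitals, shown because these genes are compared with Fos and Jun further on. Positions count back from the start used by RefSeq, and a match is a description of the letters, not of binding.

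Mmp13, chr8:12782743-12782789, plus strand, motif at -66: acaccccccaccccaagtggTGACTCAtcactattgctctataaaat
Mmp12, chr8:12866545-12866591, plus strand, motif at -87: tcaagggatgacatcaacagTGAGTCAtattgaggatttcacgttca
Mmp3, chr8:12925190-12925236, plus strand, motif at -71: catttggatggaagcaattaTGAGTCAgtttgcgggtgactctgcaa
Mmp10, chr8:12974626-12974672, plus strand, motif at -61: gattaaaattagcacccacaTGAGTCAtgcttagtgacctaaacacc
Mmp7, chr8:13132943-13132989, plus strand, motif at -80: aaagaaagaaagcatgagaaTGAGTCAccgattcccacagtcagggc
Adam19, chr10:30992572-30992618, plus strand, motif at -169: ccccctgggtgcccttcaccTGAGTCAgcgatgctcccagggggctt

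Values are log2 signals as deposited. The background level is 6.42, the highest signal on any array of 27 probe sets for bacterial genes that were not spiked in, and between 54.6% and 56.8% of probe sets exceeded it on each array. In the family, 21 genes exceeded it on all 4 arrays, 9 on 1 to 3 arrays and 25 on none. As a check of the tissue, 16 of 17 measured markers of oral epithelium exceeded background on every array, among them Krt5 at 16.23 and 15.87 in peri-implant and 15.84 and 15.87 in junctional epithelium. Markers of connective tissue were also present, with 15 of 16 fibroblast markers above background on every array, while both measured enamel organ genes, Ambn and Amelx, were below it on all 4.

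The words rose and fell are kept for genes to which limma, with a variance prior that follows signal intensity, gave an adjusted p below 0.05 over all genes (Benjamini-Hochberg). By this test 7 of the 55 members rose in peri-implant epithelium, Adam9, Adam15, Adam17, Adamts4, Adamts16, Adamts19 and Mmp17, and 2 fell, Mmp11 and Mmp28. The same test called 13.4% of all genes, 7.74% as higher and 5.61% as lower, and the 16.4% of the family called is near that background. Among genes above background on all 4 arrays it called 18.1%, 10.1% as higher and 8.07% as lower, against 4 higher and 1 lower of the 21 members there. The median difference of the family was 0.26 on the log2 scale, against 0.05 over all genes, and 0.07 over the 21 bright members.

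With limma's default prior 0 of 55 members passed (smallest adjusted p = 0.138, 7 with an unadjusted p below 0.05), as did 0% of all genes. The prior that follows intensity was chosen with the knowledge that the default prior called no probe set. It was preferred because the median SD between replicates ran from 1.44 at the lowest signals to 0.08 at the highest. At an unadjusted p below 0.05 it gave 17 members. Neither this count nor the 7 is set beside the share of all genes, so neither is a result about the family. Each call below also rests on all 4 arrays. When any single array was left out, none of the 9 calls passed, except Adam15 without peri-implant replicate 1 (adjusted p = 0.0274).

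**Figure D1:**
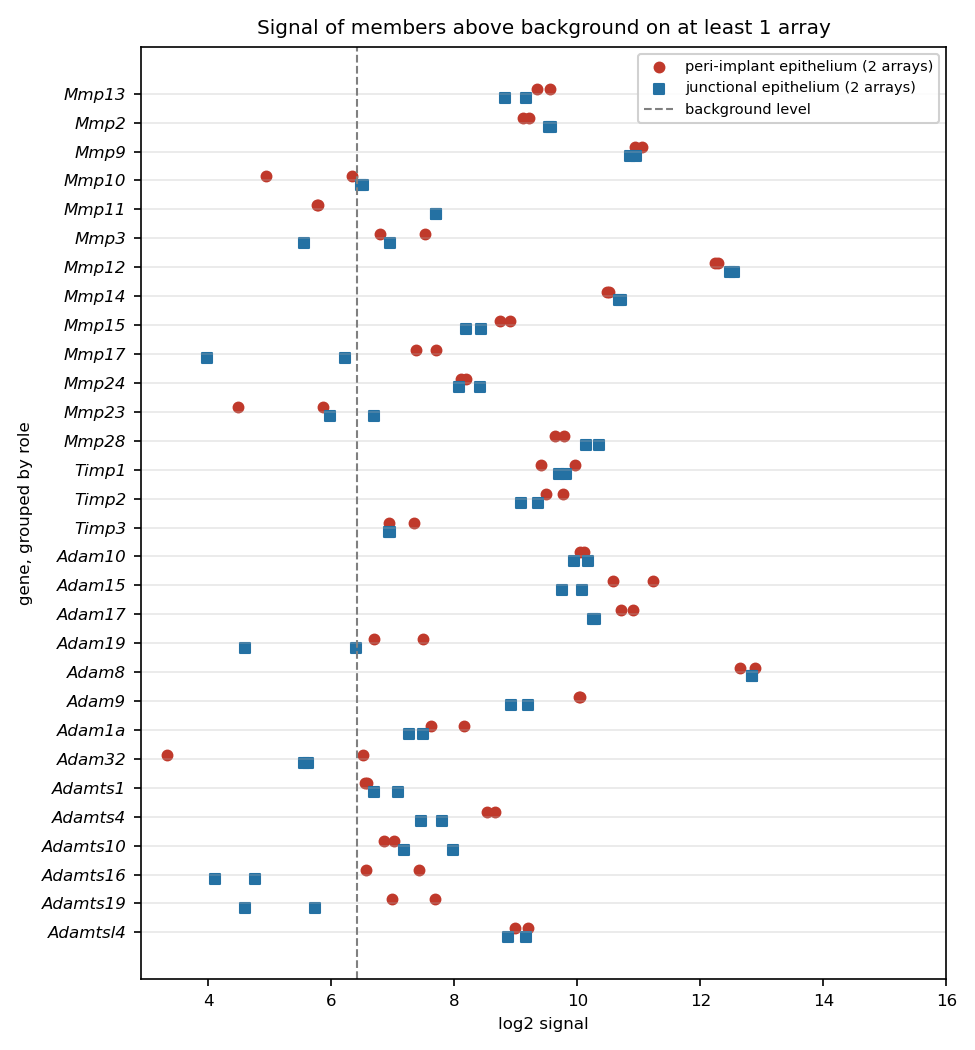
Log2 signal (horizontal axis) of the 30 members above background on at least 1 array, in peri-implant epithelium (circles, 2 arrays) and junctional epithelium (squares, 2 arrays), with the background level of 6.42 as a dashed line. Adam9, Adam15, Adam17 and Adamts4 are separated above background, and Mmp11 lies above the line only in junctional epithelium.

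The catalytic ADAM sheddases held 3 of the 7 members that rose. Over all genes 7.74% rose, and no excess in this class was tested. Adam9, a widely expressed membrane sheddase (chromosome 16, 73725186 to 73804284), was 10.05 and 10.03 in peri-implant epithelium, against 9.20 and 8.92 in junctional epithelium. Adam15, whose protein carries an integrin-binding disintegrin domain (chromosome 2, 177052363 to 177062879), was 10.58 and 11.23 in peri-implant epithelium, against 9.75 and 10.07 in junctional epithelium. Adam17, the TNF-alpha converting enzyme, which also frees ligands of the EGF receptor (chromosome 6, 46601583 to 46663690), was 10.70 and 10.90 in peri-implant epithelium, against 10.29 and 10.25 in junctional epithelium. For all of them both peri-implant arrays lay above both junctional arrays. Adam9 rose by 0.98 ± 0.16 (SE, n = 2 each, as for all differences), or 1.97-fold, with adjusted p = 0.00381. Adam15 rose by 1.00 ± 0.20, or 1.99-fold, with adjusted p = 0.0117. The rise of Adam17 was smaller, 0.54 ± 0.12 or 1.45-fold, with adjusted p = 0.0171.

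Other sheddases did not pass. Adam10, which cuts Notch receptors and E-cadherin, was 10.10 and 10.05 in peri-implant and 10.18 and 9.94 in junctional epithelium, a difference of 0.02 ± 0.13 (adjusted p = 0.956). Adam8, a protease of leukocytes and activated epithelium, was 12.64 and 12.89 in peri-implant and 12.84 and 12.84 in junctional epithelium, a difference of -0.07 ± 0.09 (adjusted p = 0.657). For both genes the arrays of the epithelia overlapped. Adam19 was above background in peri-implant epithelium only, at 7.49 and 6.69 against 4.59 and 6.41, without passing (adjusted p = 0.133). Adam33 stayed below background on all arrays.

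Among ADAMTS proteases 3 of 12 rose, beside 7.74% of all genes, and no excess was tested. Adamts4, the aggrecan- and versican-cutting aggrecanase-1 (chromosome 13, 86203011 to 86212500), was 8.66 and 8.54 in peri-implant epithelium, against 7.80 and 7.46 in junctional epithelium. It was the only one of the 6 measured proteoglycanase genes to pass, with a rise of 0.97 ± 0.24, or 1.96-fold (adjusted p = 0.027). Adamts16 (chromosome 1, 34258899 to 34388952) was 7.43 and 6.57 in peri-implant epithelium and, at 4.75 and 4.10, below background in junctional epithelium. Adamts19 (chromosome 18, 54545357 to 54729184) had the same pattern, at 6.99 and 7.68 against 5.74 and 4.59. Because a signal below background only bounds a level, Adamts16 was at least 1.49-fold and Adamts19 at least 1.88-fold higher in peri-implant epithelium. Their adjusted p in limma, 0.028 and 0.0308, belong to the signals as deposited and not to these bounds. Both fell short of the threshold when signals below background were raised to it (adjusted p = 0.279 and 0.0527).

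Adamts1, another versican-cutting enzyme, was 6.58 and 6.54 in peri-implant and 7.08 and 6.70 in junctional epithelium, a difference of -0.33 ± 0.39 (adjusted p = 0.635). Adamts10, which associates with fibrillin microfibrils, differed by -0.64 ± 0.36 (adjusted p = 0.274). Adamts5, Adamts6, Adamts7, Adamts8, Adamts9, Adamts12 and Adamts15 were below background on all arrays. Of the ADAMTS-like genes, which lack the protease domain, only Adamtsl4 was measured above background, with 8.98 and 9.20 in peri-implant and 9.16 and 8.86 in junctional epithelium. Adamtsl1, Adamtsl2 and Adamtsl5 were below it.

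The MMPs moved in both directions, with 1 of 17 rising and 2 falling, beside 7.74% and 5.61% of all genes. Mmp11, or stromelysin-3, which unlike most MMPs leaves the cell already activated (chromosome 20, 12730284 to 12739067), lay below background in peri-implant epithelium, at 5.79 and 5.77, against 7.70 and 7.71 in junctional epithelium. The arrays of each tissue were almost alike, and the fall was at least 2.44-fold (adjusted p = 0.00992 for the signals as deposited). Mmp28, or epilysin, an MMP of keratinocytes (chromosome 10, 68738651 to 68762377), was 9.78 and 9.63 in peri-implant epithelium, against 10.35 and 10.13 in junctional epithelium. Its difference was -0.53 ± 0.14, or 1.45-fold lower, with adjusted p = 0.0328. Mmp17, the lipid-anchored membrane-type MMP MT4-MMP (chromosome 12, 32710504 to 32735418), was 7.37 and 7.69 in peri-implant epithelium and below background, at 6.21 and 3.98, in junctional epithelium. It was at least 2.16-fold higher (adjusted p = 0.043 for the signals as deposited). It was the call nearest the threshold, passing in 3 of 12 alternative analyses.

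Collagenases and gelatinases, the MMPs best known from periodontal inflammation, gave 0 of 4 calls in limma with either prior. At an unadjusted p below 0.05, 2 passed in the fit that follows intensity. That fit called 13.4% of all genes and the default prior 0%, so a count this small is no result about them. Mmp13, the main collagenase of rodents, was 9.55 and 9.34 in peri-implant and 9.16 and 8.82 in junctional epithelium, a difference of 0.46 ± 0.18 without overlap of the arrays (adjusted p = 0.129). Mmp8, the collagenase of neutrophil granules, was below background on all 4 arrays. Mmp2, a gelatinase of fibroblasts, was 9.21 and 9.11 in peri-implant and 9.58 and 9.54 in junctional epithelium, a difference of -0.40 ± 0.15 (adjusted p = 0.113). Mmp9, the gelatinase of neutrophils and moving keratinocytes, was 10.93 and 11.05 in peri-implant and 10.85 and 10.95 in junctional epithelium, a difference of 0.09 ± 0.10 (adjusted p = 0.637). A dimmer probe set of Mmp9 did separate the tissues, at 10.21 and 10.18 against 9.58 and 9.67, a difference of 0.57 ± 0.13 (adjusted p = 0.026 over all probe sets), so the brightest probe set does not stand for the gene here.

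Mmp12, the elastase of macrophages, was the member nearest to a call, with 12.28 and 12.24 in peri-implant and 12.49 and 12.55 in junctional epithelium. Its difference of -0.26 ± 0.08 had adjusted p = 0.0592. It passed where genes with fewer than 2 arrays above background were left out (0.0396) and with the replicate block (0.04). It did not pass with signals raised to background (0.0508), probe set averaging (0.0613) or quantile normalization (0.0695). Nor did it with adjustment over all probe sets (0.0737) or the default prior (0.486). The stromelysins Mmp3 and Mmp10 lay near background. Mmp3 was 6.79 and 7.52 in peri-implant and 5.56 and 6.96 in junctional epithelium, and Mmp10 was 4.94 and 6.34 against 6.48 and 6.51, and neither passed (adjusted p = 0.293 and 0.389). Mmp7, the matrilysin of glandular epithelium, was below background on all arrays. Of the membrane-type MMPs, Mmp14, which activates Mmp2, was 10.51 and 10.49 in peri-implant and 10.72 and 10.68 in junctional epithelium (difference -0.20 ± 0.11, adjusted p = 0.259), and Mmp15 was 8.74 and 8.91 against 8.43 and 8.18 (difference 0.52 ± 0.20, adjusted p = 0.125). Mmp24 differed by -0.09 ± 0.23, Mmp16 and Mmp19 were below background on all arrays, and Mmp23 exceeded it on 1 junctional array.

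**Figure D2:**
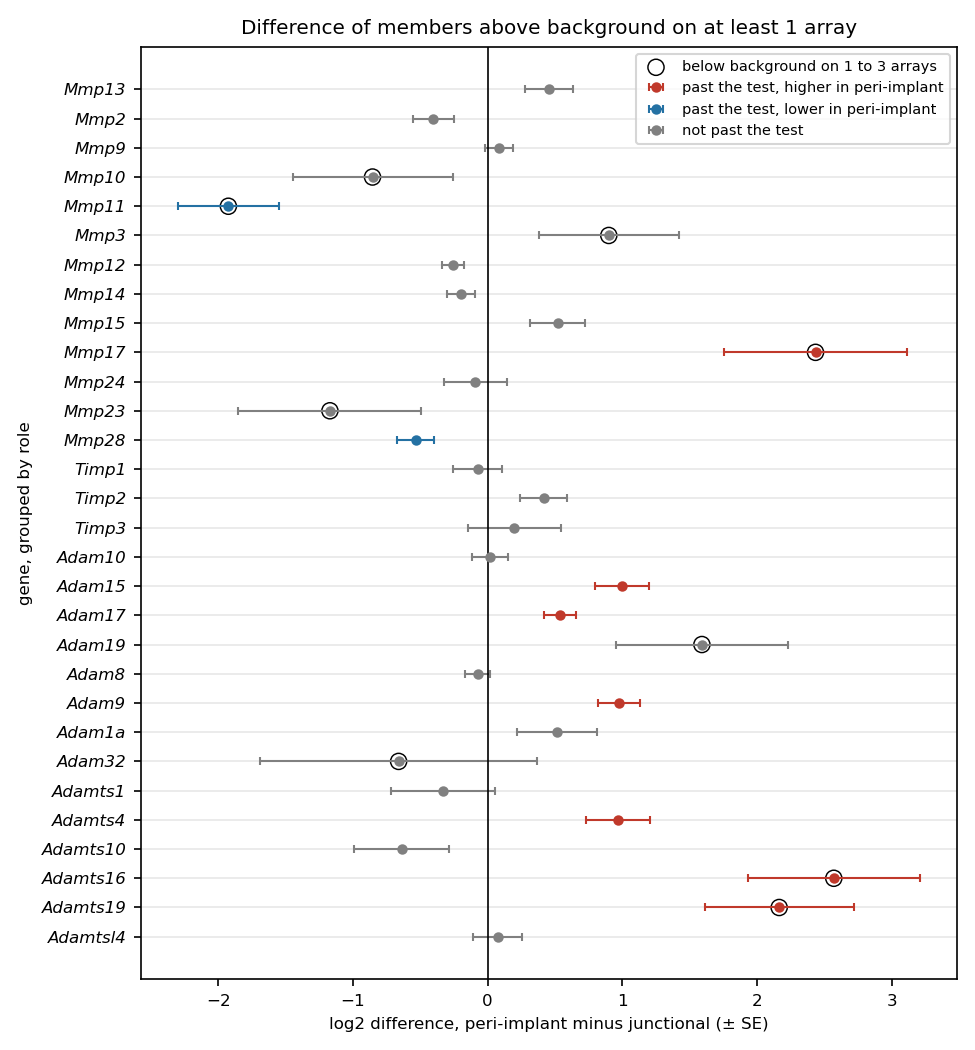
Log2 difference of peri-implant minus junctional epithelium with its SE (limma, 2 arrays each) for the 30 members above background on at least 1 array, where colours mark members past the test and rings mark genes below background on 1 to 3 arrays. Members below background on some arrays had the widest errors, and the bright members that rose reach no more than 1.00.

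The inhibitors gave no call, with 0 of 4 TIMPs past limma's test with either prior. At an unadjusted p below 0.05, 1 passed in the fit that follows intensity. That fit called 13.4% of all genes and the default prior 0%, so 0 of 4 is no result about the TIMPs. Timp1, the inducible inhibitor, was 9.41 and 9.96 in peri-implant and 9.82 and 9.70 in junctional epithelium, a difference of -0.07 ± 0.18 (adjusted p = 0.838). Timp2, which also takes part in the activation of Mmp2 by Mmp14, was 9.50 and 9.77 against 9.36 and 9.08, a difference of 0.42 ± 0.17 (adjusted p = 0.144). Timp3, the matrix-bound inhibitor of Adam17 and of aggrecanases, was 7.34 and 6.94 against 6.94 and 6.94, a difference of 0.20 ± 0.34 (adjusted p = 0.761). Timp4 was below background.

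The direction of Timp3 could not be read from this array. Its 4 probe sets gave differences of 0.20, 0.82, -2.16 and -1.78, and none passed over all probe sets (adjusted p from 0.178 to 0.783). In all, 16 members had more than 1 probe set, and in 8 of these all probe sets had the same sign. Among the 5 with several probe sets above background on every array, 4 kept 1 sign (Mmp9, Mmp14, Mmp24 and Timp2), and Adam10 did not. For Mmp24 the sizes differed, with -0.09, -0.12 and -0.99. Each of the 9 called members was measured by a single probe set.

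**Figure D3:**
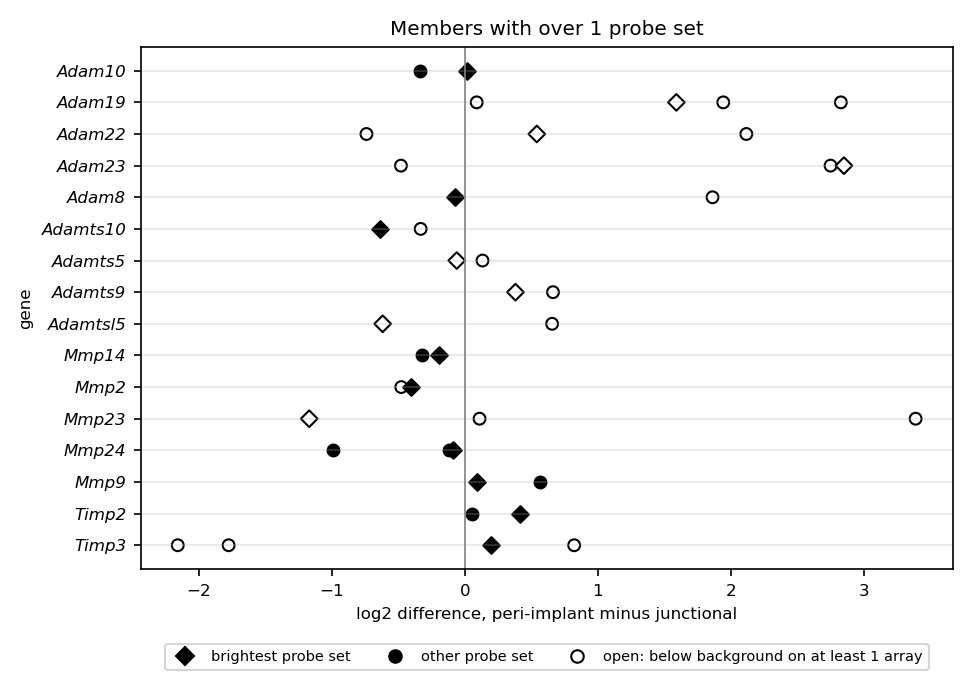
Log2 difference of peri-implant minus junctional epithelium for each probe set of the 16 members with more than 1 (diamond, the brightest; circle, the others; open symbols, below background on at least 1 array). The probe sets of Timp3 fall on both sides of 0, and those of Mmp9, Mmp14 and Timp2 on 1 side.

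The remaining members are known mainly from testis, epididymis and brain, and 0 of 11 passed limma's test, also at an unadjusted p below 0.05. The test called 13.4% of all genes, so a count this small is no result about these members. Adam1a, grouped here with the ADAMs of the germ line, was above background throughout. Its signals were 7.62 and 8.16 in peri-implant and 7.49 and 7.27 in junctional epithelium (difference 0.51 ± 0.30, adjusted p = 0.292). Adam32 exceeded background on 1 peri-implant array. Adam2, Adam3a, Adam4, Adam6, Adam7, Adam11, Adam18, Adam22 and Adam23 were below it on all arrays. Differences of members below background on every array reached 3.15 in size (Adam2, lower in peri-implant epithelium) with a median SD between replicates of 0.91, against 0.18 for the 21 bright members, and 0 of these 25 passed.

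The peri-implant arrays lay wholly above the junctional arrays for 19 members and wholly below for 14. Over all genes this was so for 31.2% and 25.2%, and the family's counts do not stand apart from these shares. Among the 21 bright members the counts were 8 and 6, against 34.2% and 29.2% of all bright genes. The members lie on 19 chromosomes. The chromosome 8 cluster gave 0 of 6 calls (2 at an unadjusted p below 0.05), beside 13.4% of all genes called. Only Mmp13 and Mmp12 in this cluster were above background on every array, and their differences of 0.46 and -0.26 had opposite signs. Of the 4 called members with an entry and the largest differences, Mmp11, Adam15, Adamts4 and Adam17, the 2 whose RefSeq start meets the outer end of the gene are shown with their 250 upstream bases (GRCr8, plus strand), 1 that fell and 1 that rose. Capitals mark GC boxes (GGGCGG on either strand, overlaps counted), a motif added after the sequences were seen that is found before 33.5% of all genes. Mmp11, which fell, holds 3, while among those that rose Adamts4 holds 0, Adam17 holds 1 and Adam15 holds 5. Neither printed window holds the AP-1 motif.

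Mmp11, chr20:12730034-12730283: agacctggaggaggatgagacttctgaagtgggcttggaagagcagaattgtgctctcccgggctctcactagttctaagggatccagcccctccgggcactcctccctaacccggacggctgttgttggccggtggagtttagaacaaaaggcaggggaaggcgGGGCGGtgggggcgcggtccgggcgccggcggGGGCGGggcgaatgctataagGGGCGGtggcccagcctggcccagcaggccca
Adamts4, chr13:86202761-86203010: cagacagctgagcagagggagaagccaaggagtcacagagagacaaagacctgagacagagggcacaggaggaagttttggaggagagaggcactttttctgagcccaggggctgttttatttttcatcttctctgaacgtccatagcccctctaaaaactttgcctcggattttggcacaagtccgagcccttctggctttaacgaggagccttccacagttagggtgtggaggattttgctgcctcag

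Genes that control, assist or are cut by these proteases were taken from a list of 122 symbols, of which 106 were measured. In all, 22 rose and 8 fell in peri-implant epithelium, and fewer passed with any 1 array left out. The calls with all arrays make up 28.3% of the list, against 13.4% of all genes and 18.1% of genes above background on all 4 arrays. The list was drawn up with earlier results of these data known, so the excess could be built in and was not tested. Beside the counts of each class of this list, here and below, 7.74% of all genes rose and 5.61% fell. No excess in a class was tested. Transcription factors known to act on MMP genes held 6 that rose and none that fell of 15. Fos, a subunit of AP-1, was 12.35 and 12.40 in peri-implant epithelium, against 9.91 and 9.89 in junctional epithelium, a rise of 2.47 ± 0.09 (adjusted p = 4.86e-07). Nfkb1, a subunit of NF-kappaB, rose by 1.20, the AP-1 subunit Fosl2 by 0.90 and Cebpb by 0.81. Jun rose by 0.57. None of the 6 members with the AP-1 motif passed the test, which called 13.4% of all genes, so a count this small is no result about them. A link between these transcription factors and the members was not tested. Mmp13 differed by 0.46 and Mmp12 by -0.26. Mmp3, Mmp10 and Adam19 were below background on some arrays, and with such signals raised to it they differed by 0.47, -0.07 and 0.67, while Mmp7 was below background on all arrays.

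Among 16 activators of metalloproteinase proenzymes and related proteases, 2 rose and 4 fell. Plat, tissue plasminogen activator, was 14.00 and 13.97 in peri-implant epithelium, against 11.94 and 12.00 in junctional epithelium, a rise of 2.02. Klk6, a kallikrein, was 7.28 and 6.78 against 9.39 and 9.18, a fall with a difference of -2.25. The proprotein convertase Pcsk5 rose by 0.69, while Pcsk7 had a difference of -0.63. Furin, the convertase that removes the propeptide of Mmp11 and of many ADAMs (outside the naming rule and chosen after its values were seen), was 12.89 and 12.89 in peri-implant epithelium, against 13.34 and 13.37 in junctional epithelium, and fell as well (difference -0.46 ± 0.07, adjusted p = 0.00287).

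Inhibitors other than TIMPs held 1 gene that rose of 11, Fetub, whose product blocks astacin-type metalloproteinases, with 8.48 and 8.71 in peri-implant epithelium and signals below background in junctional epithelium (at least 4.52-fold). The membrane-anchored MMP inhibitor Reck and the broad protease inhibitor A2m were below background on all arrays. Of 15 inducers and partners, 5 rose and none fell. Lcn2, which forms a complex with Mmp9, was 8.10 and 8.54 against signals below background, at least 3.73-fold higher. The tetraspanin Tspan5, a partner of Adam10 in its transport, rose by 1.45, Frmd8, which stabilizes the iRhom and Adam17 complex, by 0.91 (10.00 and 10.13 against 9.02 and 9.29), and Lrp1, a receptor that clears MMPs and TIMPs, by 0.74. The iRhoms Rhbdf1 and Rhbdf2, cofactors of Adam17, differed by 0.52 and 0.46 without passing (adjusted p = 0.0668 and 0.433).

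Of 23 listed ADAM substrates, 2 rose and 2 fell. Icam1, an adhesion molecule that binds leukocytes, was 9.76 and 9.82 in peri-implant and 8.28 and 8.03 in junctional epithelium, a rise of 1.64, and the junctional adhesion molecule gene F11r rose by 0.49. Notch2 and the EGF receptor ligand Tgfa fell, with differences of -0.95 and -0.75. Tnf, the substrate that gave Adam17 its name, differed by 0.27 (adjusted p = 0.579). Of 22 matrix substrates of MMPs and ADAMTS proteases, 6 rose and 2 fell. Fibronectin (Fn1, at least 2.43-fold), biglycan (Bgn, by 1.18), tenascin-C (Tnc, by 1.10) and the basement membrane collagen Col4a1 (by 1.07) rose, while the laminin chains Lama3 and Lamb3 fell, with differences of -1.07 and -0.97. The metalloproteinases related to MMPs outside the family, of which 4 were measured, gave 0 calls (1 at an unadjusted p below 0.05), and Bmp1, which trims procollagen, differed by -0.45 (adjusted p = 0.0802).

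**Figure D4:**
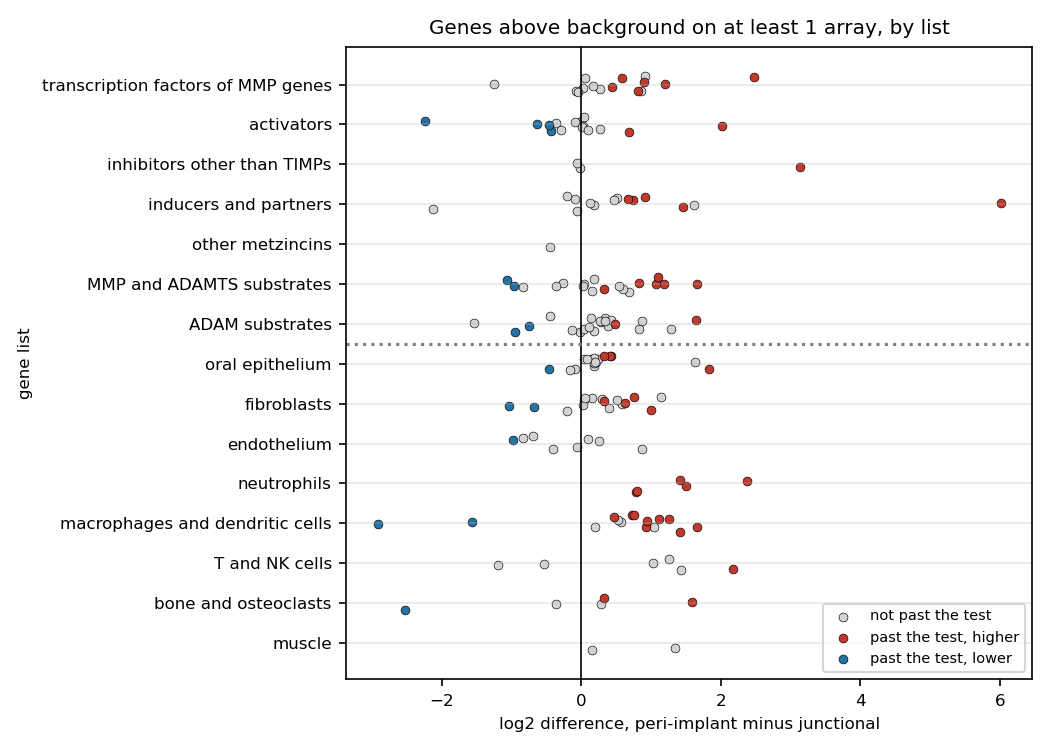
Log2 difference of peri-implant minus junctional epithelium for genes above background on at least 1 array, by list, with regulators, partners and substrates above the dotted line and cell type markers below it (each point a gene, coloured where past limma's test). The neutrophil markers shown all lie to the right of 0, and Lcn2, at 6.02, is a fitted value against signals below background.

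Markers of other cells moved with the samples, and their part in the values above was not tested. Over all marker lists 25 rose and 7 fell, and fewer passed with any 1 array left out. Beside the counts of each list below, 7.74% of all genes rose and 5.61% fell. Among genes above background on all 4 arrays these shares were 10.1% and 8.07%. The lists were drawn up with earlier results known, so no excess over these shares was tested. In bulk tissue, fewer cells of a type and less RNA per cell cannot be told apart. The neutrophil collagenase Mmp8 was below background in both tissues, and its signal was not tested as a measure of neutrophil content. Of 8 measured neutrophil markers 5 rose and none fell. Their summed signal was 16.66 and 16.46 (log2) in peri-implant and 15.23 and 15.24 in junctional epithelium. S100a8 and S100a9, which gingival keratinocytes are also known to express, carried nearly all of this sum, with 15.72 and 15.51 against 14.78 and 14.85 for S100a8 and 15.50 and 15.29 against 13.12 and 12.92 for S100a9. The next marker, Cxcr2, the receptor of neutrophil chemokines, was 10.95 and 10.96 against 9.47 and 9.61. Of 16 macrophage and dendritic cell markers 9 rose and 2 fell. Their sums, 14.71 and 14.60 against 14.13 and 14.01, were led by Lyz2 (14.01 and 13.75 against 13.48 and 13.35). Those that fell were Trem2 and Mrc1, both below background in peri-implant epithelium, by at least 2.74-fold and 2.22-fold. The macrophage elastase Mmp12 differed by -0.26. Fibroblast markers gave 4 that rose and 2 that fell of 16, with sums of 15.95 and 15.94 against 15.75 and 15.77. Those that rose were Postn (by 1.00), Thy1 (by 0.75), Vim (by 0.62) and Col1a1 (by 0.32). Pdgfra and S100a4 fell, with differences of -1.04 and -0.68. Endothelial markers had sums of 11.18 and 11.08 against 11.20 and 11.44, with 1 of 8 falling, and those of oral epithelium 18.60 and 18.40 against 18.25 and 18.29, with 4 rising and 1 falling of 17. Sums for the 9 T and NK cell markers were 9.58 and 9.63 against 8.27 and 9.16 (1 rose), for the 7 bone and osteoclast markers 11.82 and 11.93 against 11.81 and 11.86 (2 rose and 1 fell), and for the 7 muscle markers 13.44 and 13.32 against 13.23 and 13.22 (0 passed, also at an unadjusted p below 0.05, and Myh1 alone exceeded background on all arrays).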

How the data were processed

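Gene expression was measured on 4 rat arrays with 1 colour, grouped by title into peri-implant and junctional epithelium. Per the labels' protocols, RNA was extracted with an RNeasy Micro Kit, amplified with the Ovation system and biotin-labelled. The authors deposited log2 signals of 31099 probe sets, and the software behind them is unknown. They show a common linear mean of 500.19 per array after trimming 2% at each end, and 378 to 729 values at 0 per array, so differences at low signals are unstable. No further normalization was applied. Control probe sets (57) were left out, and genes came from the platform annotation (20826 probe sets with 1 symbol, 436 with several, 9780 with none). Positions and current symbols came from RefSeq (GRCr8), where all 55 members matched.

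The limma 3.58.1 package of R 4.3.3 fitted every probe set, with eBayes run with its trend and robust options (two-sided, 2 residual degrees of freedom). A simulation was also run, with changes placed only in probe sets brighter than background. It does not bear on the calls with signals below background, Mmp11, Mmp17, Adamts16 and Adamts19. P-values were adjusted over 14217 genes (threshold 0.05). For "at least" folds, signals below 6.42 were raised to it. Members, lists and the choice of prior were made with earlier results of these data known. Named genes were all members called or above background, and up to 4 per list, by size among those called (markers by level). Jun, Furin, Reck, A2m, Rhbdf1, Rhbdf2, Tnf, Lama3, Lamb3, Pdgfra, Postn, Thy1, Vim, S100a4, Trem2 and Mrc1 were added after their values were seen. The number of arrays limits the precision. Alternatives were limma's other priors, quantile normalization, background treatments, probe set averaging, adjustment over probe sets, a replicate block and leaving out each array.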

Additional observations from a re-analysis of the deposited data

How the results depend on the processing

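Across the alternatives run, 0 of the 9 called members changed direction. With limma's default prior, 0 genes passed in any list (0 members higher, 0 lower, 0 regulators and 0 markers either way). With 1 array left out, the counts ranged from 0 to 1 for members higher (7 with all arrays) and were 0 throughout for members lower (2 with all arrays), with fewer arrays in each of these fits. The same fits gave 7 to 9 regulators, partners and substrates higher and 2 to 4 lower (22 and 8 with all arrays), and 4 to 10 markers higher and 0 to 4 lower (25 and 7 with all arrays). The family's median difference, 0.26, was 0 where signals below background were raised to it, and counting only the 21 members above background on all arrays, chosen after seeing the data, left 4 higher and 1 lower. Deviations from the group means had a correlation of 0.04 over all probe sets between arrays with the same replicate number. With 2 arrays per group this cannot decide whether the numbers pair the samples. With the replicate block 7 members were higher and 3 lower, with 13 regulators lower. Single genes were recomputed for the 30 members above background on at least 1 array, not for the other 25. Among those 30, the mean of all probe sets turned the sign of Adam10 (-0.1609), Adam8 (0.8947), Mmp23 (0.7771) and Timp3 (-0.7289), none of them past the test, and raising signals to background turned that of Adam32 (0.046). Leaving out 1 array gave values on both sides of 0 for 7 of the 30, none past the test: Adam32 from -2.2502 to 0.9291, Adam10 from -0.1021 to 0.1346, Adam8 from -0.1996 to 0.0519, Timp3 from -0.0048 to 0.4017, Timp1 from -0.3454 to 0.1972, Mmp24 from -0.2616 to 0.0817 and Adamtsl4 from -0.0761 to 0.225. The causes were not tested. Signals below 6.42 give only a bound, which limits 34 of the 55 members on at least 1 array.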
